A study of Drosophila melanogaster with 20 samples.

Results

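Whole Drosophila melanogaster embryos carrying mef2 allele 113 were compared with embryos carrying allele 424, as the step between the lower and the middle of 3 hypomorphic alleles. Members were chosen by sample title, which gave 4 arrays of 113 and 4 of 424, 8 of the 20 arrays of the series. The other 12 arrays held a control, allele 65 and the null allele 22.21, with 4 arrays each. Per the labels, Mef2 levels fall in the order control, 65, 424, 113 and null. Alleles 65, 424 and 113 were induced in the stock dp cn a px sp, which also served as the control, so all 4 derive from 1 marked background, while the stock of origin of the null is not stated. Mutant embryos were picked by the absence of the GFP balancer CyO P(Gal4-twi)P(UAS-2eGFP), whose marker is driven in twi-expressing cells, and controls were staged in the same way. All embryos were aged 6.5 h, pooled in groups of 150 and homogenised at mid stage 13, early in muscle differentiation. The labels do not tell whether the 4 arrays of an allele stem from independent embryo collections, so each p-value reflects array-to-array spread that may be technical.

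Mef2 is a MADS-box transcription factor that binds A/T-rich elements in muscle gene promoters and enhancers and is required for differentiation of somatic, visceral and cardiac muscle in the fly. Its targets include sarcomere proteins, which form the contractile filaments, and factors used by myoblasts as they fuse into multinucleate fibres. At stage 13 fusion is under way and sarcomere genes are being switched on, while the epidermis begins to make its apical extracellular matrix and the tracheae form their tubes.

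RNA was hybridised to 1-colour Affymetrix arrays, and the deposited values were MAS5 signals, linear intensities scaled to a common array mean. The mean after trimming 2% at each end was 100.02 on all arrays, and median signals of the 8 arrays were 34.7 to 36.7. Pearson r across genes (not independent replicates) was 0.967 to 0.975 among the arrays of 424, 0.966 to 0.974 among those of 113, and 0.951 to 0.967 between the alleles. Changes are given as log2(signal + 16), 113 minus 424, with a standard error from limma. On this scale the change of a dim gene is understated. Each gene was represented by its brightest probe set, and 8357 genes passed the filter on low signal. A gene was called when the limma p, adjusted by Benjamini-Hochberg over all 8357 genes, was under 0.05, and 19.7% of genes had an unadjusted p under 0.05. Mef2 itself was not analysed here, so the labels were not checked against the targeted gene. The number of arrays, 4 per allele, limits the precision. In RNA from whole embryos, fewer cells of a type and less RNA per cell cannot be told apart.

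The step called 606 of 8357 genes, 7.25% of those tested, 342 higher (4.09%) and 264 lower (3.16%) in 113. The median size of a called change was 0.54 on the log2 scale. At 2-fold or more on that scale 45 genes rose (0.538%) and 16 fell (0.191%), 0.73% in all. The 4 arrays of 113 lay wholly outside the range of the 4 of 424 for 550 of the called genes, or 6.58% of those tested. Without regard to the test, 13.6% of genes had arrays that did not overlap. The run records place replicate 1 of both alleles on the same hybridisation day, and likewise the other 3 numbers. In 596 of the 606 the sign was the same on all 4 days, which the calls from these same arrays largely build in. The alleles differed in the fluidics modules used, and module 2 was the only one that served both, with 2 arrays of each. Within module 2 the arrays of 424 were replicates 1 and 3 and those of 113 replicates 2 and 4, hybridised on different days. No array of 424 thus shared both day and module with an array of 113, so values within module 2 compare different days. All 606 genes had the same sign within module 2, whose 4 arrays are among the 8 that made the calls, and 311 genes were called with the module as a block, 197 higher and 114 lower.

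**Figure D1:**
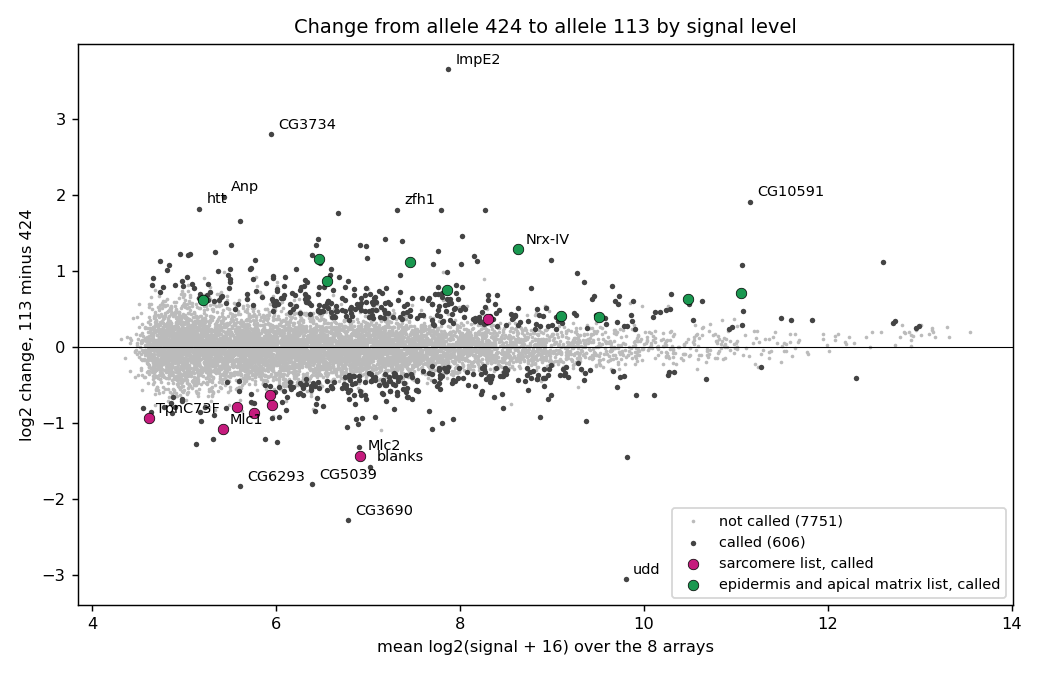
Log2 change from allele 424 to 113 against the mean log2(signal + 16) of the 8 arrays, 1 point per gene for the 8357 genes tested. Dark points are the 606 called genes, and coloured points are called members of the sarcomere list and of the epidermis and apical matrix list. The sarcomere points lie below zero apart from 1, and all 10 epidermal points lie above it.

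Both myosin light chain genes measured, Mlc1 and Mlc2, fell from 424 to 113, as did the troponin genes TpnC73F and up and the tropomyosin gene Tm2. Of 40 sarcomere genes listed, 32 were matched to a probe set with 1 gene symbol and 22 of these passed the filter. Mhc, Act57B, Tm1, wupA, TpnC47D, TpnC25D, CapZa and Lasp were not analysed here. TpnC41C, TpnC4, Act88F, Prm, Mf, Zasp66, Zasp67, Mlp60A, Cpn and tn did not pass the filter. Of the 22, 7 fell, 1 rose and 14 were not called, which is 36.4% of the members beside 7.25% of all genes. The median of the 22 members was -0.17, beside -0.01 for all genes, and 17 were below zero. By hybridisation day it was -0.25, -0.19, -0.20 and -0.24, and within module 2 it was -0.18. The summed signal of the 22 was 6429 to 6898 on the arrays of 424 and 5967 to 6272 on those of 113. The list was chosen with earlier results of these arrays known and is not independent evidence of a direction. The members that fell encode both myosin light chains measured, troponin C, troponin T, a tropomyosin, a titin-like spring and a nesprin, the last 2 called on 1 of their probe sets.

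Mlc2, which encodes the regulatory myosin light chain, had the largest fall of the list. Its signal was 202, 187, 219.9 and 132 on the arrays of 424 and 66.8, 54.97, 56.0 and 52.6 on those of 113. All 4 arrays of 113 lay below all 4 of 424, and the log2 change was -1.43 ± 0.13 (SE; limma with Benjamini-Hochberg adjustment, adjusted p = 1.72e-08). Mlc1, the alkali light chain, had signals of 42.03, 33.5, 52.4 and 61.02 on the arrays of 424 and 23.7, 5.52, 21.9 and 7.37 on those of 113. The groups did not overlap and the change was -1.08 ± 0.19 (adjusted p = 6.24e-04). Arrays 2 and 4 of 113 were the low ones for Mlc1, both under the filter signal of 9.29. These were the arrays of 113 run on module 2, while arrays 1 and 3 were run on module 3.

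In the thin filament, TpnC73F, the troponin C that binds calcium, had signals of 18.9, 13.7, 26.5 and 14.3 on the arrays of 424 and 3.11, 0.675, 1.72 and 1.48 on those of 113. The 4 arrays of 113 were below the filter signal of 9.29, and the change of -0.94 ± 0.18 therefore varies with the pseudocount (limma adjusted p = 0.00149). Tm2, a tropomyosin, had 73.1, 64.4, 62.6 and 60.1 on the arrays of 424 and 32.6, 35.2, 27.9 and 31.4 on those of 113, with a change of -0.76 ± 0.14 (adjusted p = 6.54e-04). Its arrays formed a tight band in each allele, well apart. For up, which encodes troponin T, the signals were 51.6, 55.9, 58.3 and 27.4 on the arrays of 424 and 24.9, 16.1, 30.7 and 12.3 on those of 113. Here the bands overlapped, since replicate 4 of 424 lay below replicate 3 of 113, and the change was -0.79 ± 0.21 (limma adjusted p = 0.0174). The call of up was lost without replicate 2 or 3 of 424 and without replicate 2 or 4 of 113, at -0.97 to -0.67 over all arrays left out in turn.

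Among the giant proteins, Msp300, the nesprin that links nuclei and Z-discs, had signals of 60.1, 51.2, 61.7 and 55.9 on the arrays of 424 and 48.3, 24.2, 16.7 and 14.01 on those of 113. Replicate 1 of 113 was close to the arrays of 424 but still below them, and the change was -0.87 ± 0.20 (limma adjusted p = 0.00754). The other 2 probe sets of Msp300 were at -0.13 and -0.02, and with the mean of its probe sets the call was lost. The titin-like gene sls had 52.6, 64.7, 69.1 and 55.1 on the arrays of 424 and 28.8, 32.5, 46.3 and 27.1 on those of 113, a change of -0.63 ± 0.17 (adjusted p = 0.0217) on its brightest probe set. Its other 3 probe sets were at -0.02, 0.15 and 0.02, and the call was lost with their mean and without replicate 2 or 3 of 424 or replicate 1 or 4 of 113, at -0.74 to -0.57. For both genes the call rests on 1 probe set, and 2 of the other 3 of sls had the opposite sign. bt, which encodes projectin, had 17.7, 11.7, 28.8 and 12.3 on the arrays of 424 and 8.80, 7.42, 1.47 and 10.4 on those of 113 and was not called at -0.54 ± 0.19 (limma adjusted p = 0.0859), with the mean of 113 under the filter level.

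The 1 sarcomere member that rose was cher, the actin crosslinker filamin, which acts in many tissues. Its signals were 286, 239, 281 and 245 on the arrays of 424 and 373, 343, 361 and 302 on those of 113, all 4 of 113 higher, for a change of 0.37 ± 0.09 (limma adjusted p = 0.00756). The Z-disc gene Actn, alpha-actinin, was at 0.33 ± 0.11 and was not called (adjusted p = 0.0763), with its arrays overlapping. The actin genes Act87E and Act79B were at -0.06 and -0.08, and unc-45, the myosin chaperone, at -0.03, and these 3 were not called. The signals of Act87E, 2688, 2681, 2757 and 2705 on the arrays of 424 and 2627, 2402, 2589 and 2784 on those of 113, overlapped. tmod, the pointed-end cap of the thin filament, was at -0.23 (limma adjusted p = 0.0732) and Zasp52, a Z-disc PDZ protein, at 0.14 (adjusted p = 0.721). The other members not called, kel, flr, Obsc, cpb, Strn-Mlck, Mlp84B and Fhos, lay between -0.25 and 0.15.

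Over the 5 genotypes, the members that fell had falling means from 65 to 113. The mean signal of Mlc2 was 514 ± 49.9 in the control, 339.7 ± 32.6 in 65, 185 ± 37.9 in 424, 57.6 ± 6.31 in 113 and 46.3 ± 7.33 in the null (SD, n = 4 each). Mlc1 went through 155, 80.6, 47.2, 14.6 and 3.88, and Tm2 through 115, 97.6, 65.04, 31.8 and 11.2 in the same order. sls had means of 69.4 in the control and 71.05 in 65. TpnC73F had 1.75 in 113 and 3.65 in the null, both under the filter level. The drop of these genes between 424 and 113 was not shown to differ in size from that between 65 and 424: limma's test of the difference gave adjusted p values from 0.112 for Mlc2 to 0.966 for up. Against the step from 113 to the null it differed for Mlc2, which was there at -0.24 (adjusted p of the difference = 6.05e-04), and for TpnC73F (adjusted p of the difference = 0.0316). The other 5 had adjusted p values from 0.398 for Mlc1 to 0.914 for up. Tm2 and sls changed by -0.83 and -0.99 from 113 to the null. The 65 to 424 and 113 to null steps share the arrays of 424 and of 113 with the step described here.

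**Figure D2:**
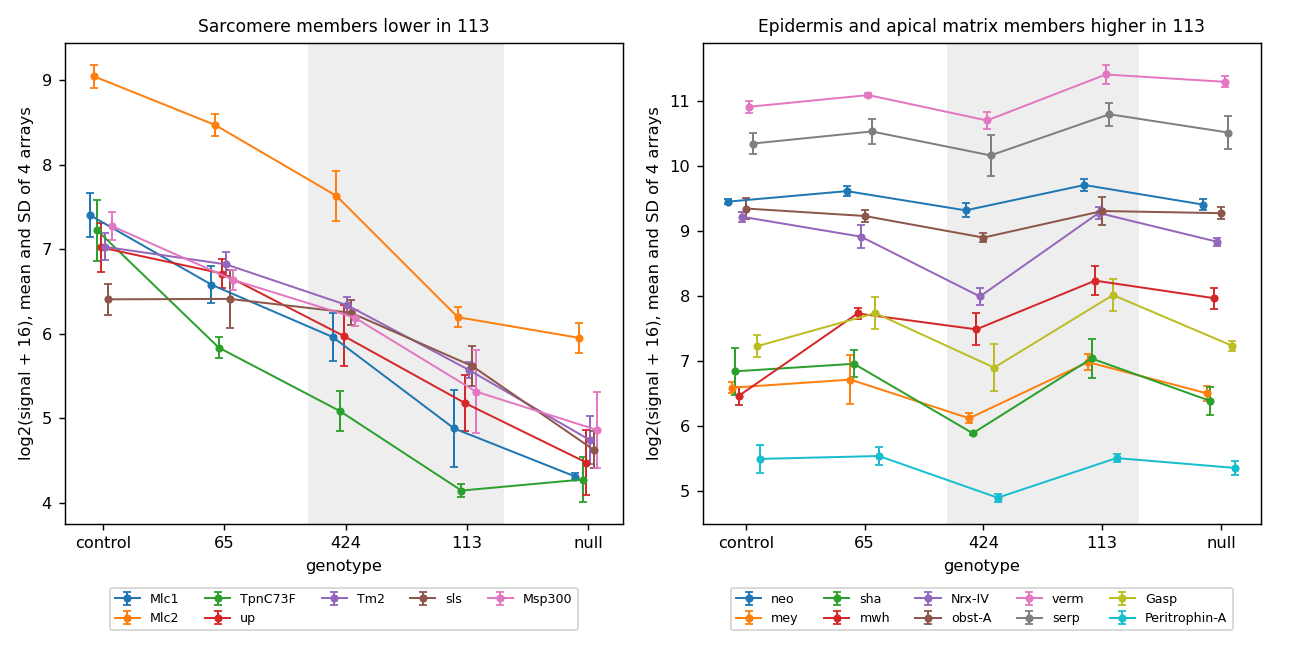
Mean log2(signal + 16) in each genotype, in the labelled order of Mef2 levels, for the 7 sarcomere members lower in 113 (left) and the 10 epidermis and apical matrix members higher in 113 (right). Error bars are SD of 4 arrays and the shaded band marks the step. The sarcomere lines fall from 65 through 424 to 113, and each epidermal line is lower in 424 than in 65 and 113.

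Of 18 myoblast fusion genes tested, sing fell and Vrp1 rose, 11.1% of the members beside 7.25% of all genes (median -0.09). sing, a membrane protein needed for fusion, had signals of 127, 144, 132 and 137 on the arrays of 424 and 71.9, 91.4, 74.3 and 59.1 on those of 113. The groups did not overlap, and the change was -0.75 ± 0.15 (limma adjusted p = 0.00143). In sing the control, 65 and 424 had means of 138, 149 and 135, and the means then went to 74.2 in 113 and 10.8 in the null. Vrp1, the fly verprolin that links adhesion to branched actin, rose by 0.56 ± 0.13 (limma adjusted p = 0.00953). Its means were 141, 167 and 156 in the control, 65 and 424, beside 236 in 113 and 240.4 in the null.

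Of 29 genes of muscle attachment and integrin adhesion, 3 rose and 1 fell, 13.8% beside 7.25% of all genes (median -0.01). sr, the factor that specifies tendon cells, had signals of 152, 106, 104 and 147 on the arrays of 424 and 142, 203, 210.2 and 227 on those of 113, with replicate 1 of 113 inside the range of 424, and a change of 0.56 ± 0.13 (limma adjusted p = 0.00963). slow, a secreted protein at the muscle-tendon junction, changed by 0.41 ± 0.07 and Tig, an integrin ligand of the muscle ends, by 0.45 ± 0.14 (limma adjusted p = 7.56e-04 and 0.0428). The call of Tig was lost without any 1 of replicates 2, 3 and 4 of 424 or 1, 3 and 4 of 113, at 0.36 to 0.54. kon, a transmembrane proteoglycan used in myotube guidance, fell by 0.31, and was not called without replicate 4 of 424 or replicate 1 of 113.

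Among 20 mesoderm and myogenic regulators, zfh1 alone was called (5% beside 7.25% of all genes; median -0.02). zfh1 encodes a zinc-finger and homeodomain factor of the early mesoderm, heart and nervous system. Its signal was 75.7, 79.9, 59.5 and 64.3 on the arrays of 424 and 269.8, 271, 347 and 252 on those of 113, with no overlap, a rise of 1.81 ± 0.13 (limma adjusted p = 4.17e-10). Its means did not follow the order of Mef2 levels, with 429 in the control, 198 in 65, 69.8 in 424, 285 in 113 and 178 in the null. Of 23 founder identity factors, the Iroquois gene mirr fell by 0.59 (limma adjusted p = 0.0391) and the rest were not called (4.35% called; median -0.07). The mirr call was lost without any 1 of replicates 1, 2 and 3 of 424 or 2, 3 and 4 of 113. In visceral muscle (median -0.20), 1 of 13 was called, lower (7.69%, beside 7.25% of all genes called and 3.16% called lower). This was HLH54F, which specifies the caudal visceral mesoderm, at -0.54 ± 0.13 (limma adjusted p = 0.0115). Without replicate 2 of 113 it was at -0.43 and was not called. limma called 0 of 23 muscle membrane, calcium and energy genes (2 at an unadjusted p under 0.05) and 0 of 18 heart genes (4 at an unadjusted p under 0.05), with lowest adjusted p values of 0.0623 for Ald1, an aldolase, and 0.0797 for pnr, a GATA factor. The summed signal of the mesoderm list was 7191 to 7860 on the arrays of 424 and 7500 to 8143 on those of 113, and that of the fusion list 4594 to 4837 and 4669 to 4837. Their part in the sarcomere changes was not tested.

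A group of epidermal and apical matrix genes rose from 424 to 113. Of 30 tested, 10 rose and 0 fell, 33.3% of the members beside 4.09% of all genes called higher. The other 20 members were not called. The median was 0.32, with 21 members above zero and 9 below it, down to -0.38. Taken by hybridisation day, the list's median was 0.24, 0.28, 0.29 and 0.29. It was 0.12 within module 2, and the calls of serp and obst-A were lost with the module as a block. The summed signal of the list was 7588 to 8938 on the arrays of 424 and 10118 to 12193 on those of 113.

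Nrx-IV, a neurexin of the septate junctions that seal epithelia and glia, had signals of 243, 257, 249 and 209 on the arrays of 424 and 625, 612, 637 and 545 on those of 113. Each array of 113 was higher than every array of 424, and the change was 1.28 ± 0.09 (limma adjusted p = 2.17e-10). sha, which shapes denticles and wing hairs, had 42.4, 42.6, 44.1 and 44.2 on the arrays of 424 and 151, 128, 103 and 88.9 on those of 113, a change of 1.15 ± 0.16 (limma adjusted p = 4.39e-05). The arrays of 424 were nearly identical for sha, while those of 113 spread more widely above them. Gasp, a chitin-binding protein of the tracheal lumen, had 127, 109, 122 and 66.3 on the arrays of 424 and 289, 258, 247 and 188 on those of 113, a change of 1.12 ± 0.15 (limma adjusted p = 2.59e-05). Replicate 4 was the lowest of both alleles for Gasp, and the alleles did not overlap.

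The zona pellucida domain genes mey and neo, which sculpt the apical surface, changed by 0.86 ± 0.14 and 0.39 ± 0.07 (limma adjusted p = 1.87e-04 and 7.15e-04). mwh, which restricts actin assembly in hairs and denticles, changed by 0.75 ± 0.12 (adjusted p = 2.36e-04). The chitin deacetylases verm and serp, which set the length of tracheal tubes, changed by 0.71 ± 0.08 and 0.63 ± 0.14 (limma adjusted p = 1.11e-06 and 0.00493). The chitin-binding genes Peritrophin-A and obst-A changed by 0.61 ± 0.14 and 0.41 ± 0.10 (limma adjusted p = 0.00766 and 0.00832). In all 10 the arrays of the alleles did not overlap. The second probe set of obst-A was at 0.09, and its call was lost with the mean of the probe sets. Gasp, verm and serp also stood in the trachea list, where they were the 3 members called of 14, all higher (21.4% beside 4.09% of all genes; median 0.18).

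In 9 of these 10 genes the lowest mean of the 5 genotypes was that of 424. Nrx-IV had mean signals of 579.7 in the control, 468 in 65, 239 ± 21.2 in 424, 605 ± 40.9 in 113 and 440.1 in the null (SD, n = 4). sha had 101, 109, 43.3, 118 and 68.4, and Peritrophin-A 29.5, 30.7, 13.9, 29.6 and 25.1. mwh was different, with the control lowest at 72.6, beside 165 in 424 and 288 in 113. The rise from 424 to 113 differed from the change between 65 and 424 in all 10 genes, with limma adjusted p values of the difference up to 0.00968. Since 424 enters these 2 steps with opposite sign, a low value of 424 counts in both. Against the step from 113 to the null, 8 of the 10 differed, and obst-A and Peritrophin-A had adjusted p values of 0.100 and 0.0507.

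ImpE2, which responds to ecdysone in imaginal discs, had the largest change of all genes. Its signal was 44.7, 51.4, 78.2 and 33.4 on the arrays of 424 and 1045, 956, 753 and 580.0 on those of 113. The arrays of the alleles did not overlap, and the change was 3.65 ± 0.16 (limma adjusted p = 1.08e-13). The control, 65 and the null were at 728, 800.5 and 608, and all 4 arrays of 424 lay below the other 16. Of 21 ecdysone response genes, ImpL1 was the other 1 called (9.52% of the list, beside 7.25% of all genes called and 4.09% called higher). ImpL1 was at 0.43 ± 0.12 (limma adjusted p = 0.0278), with overlapping arrays. Its call was lost without replicate 2 or 4 of 424 and without replicate 1 or 2 of 113, at 0.33 to 0.53. The median of the ecdysone list was 0.14, and -0.04 when the lowest 40% of signals was left out.

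In the immune list 1 of 19 genes rose, Anp, which encodes the antibacterial peptide andropin. Its signals were 3.47, 4.19, 15.2 and 2.45 on the arrays of 424 and 76.5, 61.99, 85.2 and 58.5 on those of 113, and the means of the control, 65 and the null were 14.8, 24.4 and 11.7. All 4 arrays of 113 lay above the other 16. The change was 1.98 ± 0.27 (limma adjusted p = 2.22e-05), with the mean of 424 under the filter level. The median of the list was 0.03, and 5.26% of it was called, beside 7.25% of all genes called and 4.09% called higher. Of 11 heat shock genes 2 rose (18.2% beside the same 4.09%; median 0.22). Hsc70-4, the constitutive Hsp70, had 3279, 3359.7, 2930.4 and 3229 on the arrays of 424 and 3834, 3897, 4535 and 4068 on those of 113, a change of 0.35 ± 0.08 (limma adjusted p = 0.00624) that was not called after quantile normalisation, at 0.18. stv, a BAG-domain co-chaperone needed in muscle, changed by 0.87 ± 0.17 (adjusted p = 0.00207) in the brightest of its probe sets, the second was at 0.01, and the call was lost with their mean.

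CycE, Mcm2, fzr and PCNA, which act in the cell cycle and DNA replication, fell from 424 to 113. Of 22 such genes tested 4 fell and 0 rose (18.2% beside 3.16% of all genes called lower), the median was -0.22, and 21 lay below zero. By hybridisation day the list's median was -0.16, -0.27, -0.18 and -0.20, and within module 2 it was -0.11. The summed signal of the list was 5024 to 5453 on the arrays of 424 and 4382 to 4590 on those of 113. All 4 calls were lost with the module as a block.

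CycE, the cyclin that starts S phase, had 170.1, 224, 173 and 208 on the arrays of 424 and 99.9, 134, 114 and 145 on those of 113, all 4 arrays of 113 lower, a change of -0.59 ± 0.12 (limma adjusted p = 0.00273). Mcm2, a subunit of the replicative helicase, changed by -0.44 ± 0.11 and fzr, an activator of the anaphase-promoting complex, by -0.43 ± 0.10 (limma adjusted p = 0.0116 and 0.0114). PCNA, the sliding clamp, had 493, 530.4, 577 and 564 on the arrays of 424 and 429, 405, 420.2 and 502 on those of 113. Replicate 4 of 113 reached into the range of 424, the change was -0.29 ± 0.08 (limma adjusted p = 0.0215), and the call was lost without replicate 3 or 4 of 424 and without replicate 1, 2 or 3 of 113. Across genotypes, CycE was at 127, 138, 194, 123 and 152 from the control to the null, with the highest mean in 424. Mcm2 was at 132, 114, 151, 108 and 162.

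Markers of other tissues passed the filter on low signal for 21 of 24 neuronal, 16 of 18 gut and 16 of 20 hemocyte genes, which is not a detection call. Of 21 neuron and neuroblast genes, the neuroblast factors ase and insc fell by 0.41 and 0.43 (limma adjusted p = 0.0146 and 0.0316). Without replicate 3 of either allele ase was not called, and insc was not called without any 1 of replicates 1, 3 and 4 of either allele. Those 2 were 9.52% of the list, beside 7.25% of all genes called and 3.16% called lower. The median of that list was 0.04, and its summed signal 4658 to 5127 in 424 and 4387 to 4803 in 113. Of 17 glial genes 23.5% were called, beside 7.25% of all genes (median -0.03). Of these 3 rose, Nrx-IV, the glial determinant gcm2 at 0.47 and the glutamine synthetase gene Gs2 at 0.33, and 1 fell, mdy, an acyltransferase of fat synthesis, at -0.52 ± 0.06 (limma adjusted p = 3.49e-06). Leaving out 1 array ended the call of gcm2 for replicates 1, 2, 3 or 4 of 424 and 2 or 3 of 113, and that of Gs2 for replicates 1 or 3 of 424 and 2 or 3 of 113. Of 16 hemocyte genes (median 0.08) 1 was called, higher (6.25%, beside 7.25% of all genes called and 4.09% called higher). This was Pxn, a peroxidase of the extracellular matrix. It had 248, 136, 173 and 187 on the arrays of 424 and 246, 374, 407 and 304 on those of 113, overlapping at replicate 1. The change of Pxn was 0.79 ± 0.18 (limma adjusted p = 0.00605). The summed hemocyte signal was 8126 to 9303 in 424 and 8879 to 10153 in 113.

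Of 10 germline genes 2 fell (20% beside 3.16% of all genes; median -0.02), aub, a Piwi protein, at -0.85 ± 0.13 (limma adjusted p = 9.25e-05), and blanks, a double-stranded RNA binding protein of the testis. The means of aub were 55.9, 47.0, 99.6, 48.0 and 38.6 from the control to the null, highest in 424. Of 15 cuticle protein genes 1 rose and 1 fell (13.3% beside 7.25% of all genes; median 0.15), Cpr11A at 1.66 ± 0.15 and Ccp84Ag at -0.94 ± 0.20 (limma adjusted p = 2.80e-08 and 0.00433). Every array of 424 lay above all arrays of the other genotypes for aub and Ccp84Ag, and below them for Cpr11A. Ccp84Ag had means of 60.7, 60.7, 154, 73.1 and 81.1 from the control to the null. limma called 0 of 16 gut, 8 salivary gland and 5 fat body genes (2, 0 and 1 at an unadjusted p under 0.05), with smallest adjusted p values of 0.113 for Inx2, a gap junction protein, 0.573 for PH4alphaSG2, a prolyl hydroxylase, and 0.145 for Fbp1, a receptor for storage protein.

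The shares called in the housekeeping lists are set beside the 7.25% of all genes. limma called 0 of 8 ribosomal protein genes (3 at an unadjusted p under 0.05). RpL3 had the smallest adjusted p, 0.137, and all 8 were above zero, with a median of 0.19 that was 0.02 after quantile normalisation. limma also called 0 of 18 mitochondrial respiration genes (1 at an unadjusted p under 0.05; median 0.04; limma adjusted p = 0.0950 for blw, an ATP synthase subunit). Of 26 proteasome genes Prosbeta2 and Prosalpha5 fell by 0.40 and 0.27 (7.69% of the list). The call of Prosbeta2 was lost without replicate 3 of 424, at -0.35, and that of Prosalpha5 without any array but replicate 4 of 113. Of 8 glycolytic genes Gapdh1 rose by 0.41 (12.5%), and was not called without replicate 1, 2 or 4 of 424 or 1, 2 or 3 of 113. Of 13 apoptosis genes the effector caspase gene Dcp-1 fell by 0.51 (7.69%), and was not called without replicate 1, 2 or 4 of 424 or 1, 3 or 4 of 113. Of 14 genes of the nucleolus and ribosomal RNA synthesis 1 fell, udd (7.14%).

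**Figure D3:**
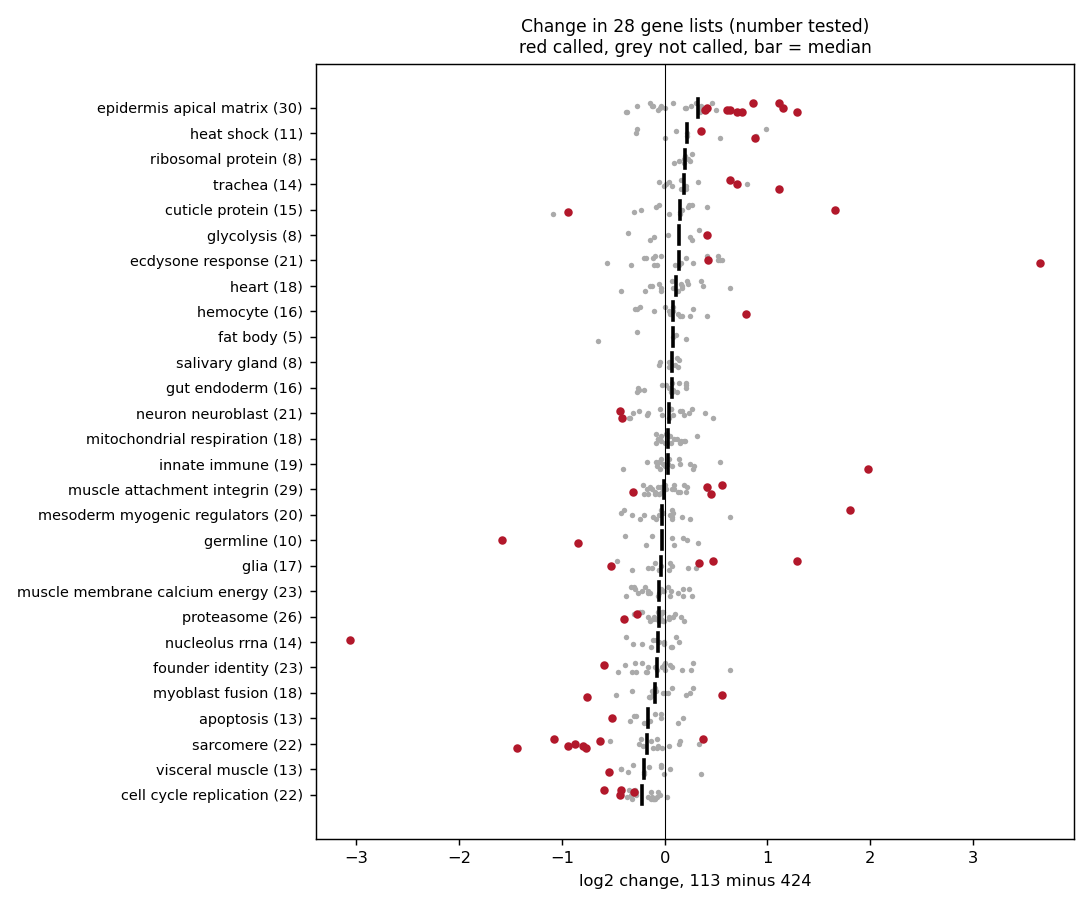
Log2 change from allele 424 to 113 of every tested member of 28 gene lists, ordered by the median of the list (black bar), with the number tested in parentheses. Red points are called members and grey points are not called. The cell cycle list has the lowest median, -0.22, the sarcomere list the most called members below zero, 7, and the epidermis and apical matrix list the highest median, 0.32.

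Many of the largest changes lay outside the lists for muscle and epidermis. udd, a factor for transcription of ribosomal RNA genes, had the largest fall. Its signal was 3142, 2739.9, 2579 and 1940.2 on the arrays of 424 and 292, 268, 284 and 333 on those of 113. No array came near the other allele's range, and the change was -3.06 ± 0.13 (limma adjusted p = 1.03e-13). The means were 1877 ± 351 in the control and 2600.2 ± 499.8 in 424, beside 449.8 in 65, 294 in 113 and 388 in the null (SD, n = 4). CG5039, CG2604 and Arp10, a dynactin component, shared that arrangement, with the arrays of 424 and the control above all those of 65, 113 and the null. Their changes were -1.81 ± 0.17, -1.26 ± 0.17 and -1.06 ± 0.22 (limma adjusted p at most 0.00372). Arp10 was at -0.67 without replicate 1 of 113, which had a signal of 17.7 beside 75.1 to 87.5 on the other 3 arrays.

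CG3734 was high in 113 alone. Its signals were 7.23, 1.43, 12.5 and 10.1 on the arrays of 424 and 127, 163, 153 and 146 on those of 113, and the control, 65 and null means were 6.28, 4.46 and 5.64, all, like that of 424, under the filter level of 9.29. CG3734 thus passed the filter through 113, the group in which it is high, and its change of 2.80 ± 0.20 on the log2(signal + 16) scale is given as a description that depends on the pseudocount. CG6171 was low in 113 alone, with 67.3, 66.2, 83.2 and 79.6 on the arrays of 424 and 35.4, 29.96, 9.90 and 21.1 on those of 113, a change of -1.21 ± 0.17 (limma adjusted p = 3.06e-05).

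Further genes rose from 424 to 113. CG10591 had 1136, 1147, 1576 and 892 on the arrays of 424 and 4718, 4584, 4315 and 4053 on those of 113, a change of 1.91 ± 0.11 (limma adjusted p = 1.05e-11), with means of 4090.1, 3907 and 3509 in the control, 65 and the null. htt, the fly huntingtin, had 3.66, 1.68, 1.76 and 5.51 on the arrays of 424 and 67.5, 56.3, 45.02 and 39.8 on those of 113. All arrays of 424 were under the filter level, and the change was 1.82 ± 0.17 (adjusted p = 8.01e-08). mas, a protease-like protein of muscle attachment and axon guidance, had 162, 154, 179 and 109.7 on the arrays of 424 and 618, 612, 602 and 432 on those of 113, a change of 1.80 ± 0.14 (limma adjusted p = 1.44e-09). slf, a lectin that holds the layers of the cuticle together, changed by 1.80 ± 0.14, hui by 1.77 ± 0.13, c12.1 by 1.46 ± 0.08, CG11437 by 1.42 ± 0.15, and Vps60, a component of the membrane-cutting ESCRT-III complex, by 1.42 ± 0.10. Meics, a zinc-finger protein, and Map205, which binds microtubules, changed by 1.39 ± 0.12 and 1.35 ± 0.19. For these 10 genes limma adjusted p values were at most 4.56e-05, and the arrays of the alleles did not overlap.

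On the falling side, CG3690 had 302, 176, 236 and 208 on the arrays of 424 and 42.2, 36.9, 32.4 and 25.4 on those of 113, a change of -2.28 ± 0.22 (limma adjusted p = 6.92e-08). The other genotypes had means of 10.5, 33.6 and 29.9, so 424 was the high one. CG6293 changed by -1.84 ± 0.23, blanks by -1.58 ± 0.26 and ATPsynepsilonL, related to a subunit of ATP synthase, by -1.32 ± 0.16, and in these 3 too all arrays of 424 lay above the other 16 (limma adjusted p at most 2.47e-04). GstE3, a glutathione S-transferase, had 1468, 1445, 1355 and 1649 on the arrays of 424 and 527, 470.1, 537 and 593 on those of 113, a change of -1.45 ± 0.10 (limma adjusted p = 6.40e-10), with a mean signal of 424 in allele 65 and 1329 in the null. trx, the trithorax histone methyltransferase, changed by -1.08 ± 0.27 (limma adjusted p = 0.0116) and was not called without replicate 1 of 113, at -0.88. CG6972 and CG14109 fell too, with means from the control to the null of 273, 103, 39.6, 6.86 and 8.30 for CG6972. CG14109 went through 63.2, 57.2, 45.04, 11.1 and 4.84. Their changes in the step were -1.28 ± 0.17 and -1.22 ± 0.19 (limma adjusted p = 2.04e-05 and 1.52e-04), with the mean of 113 under the filter level for CG6972.

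**Figure D4:**
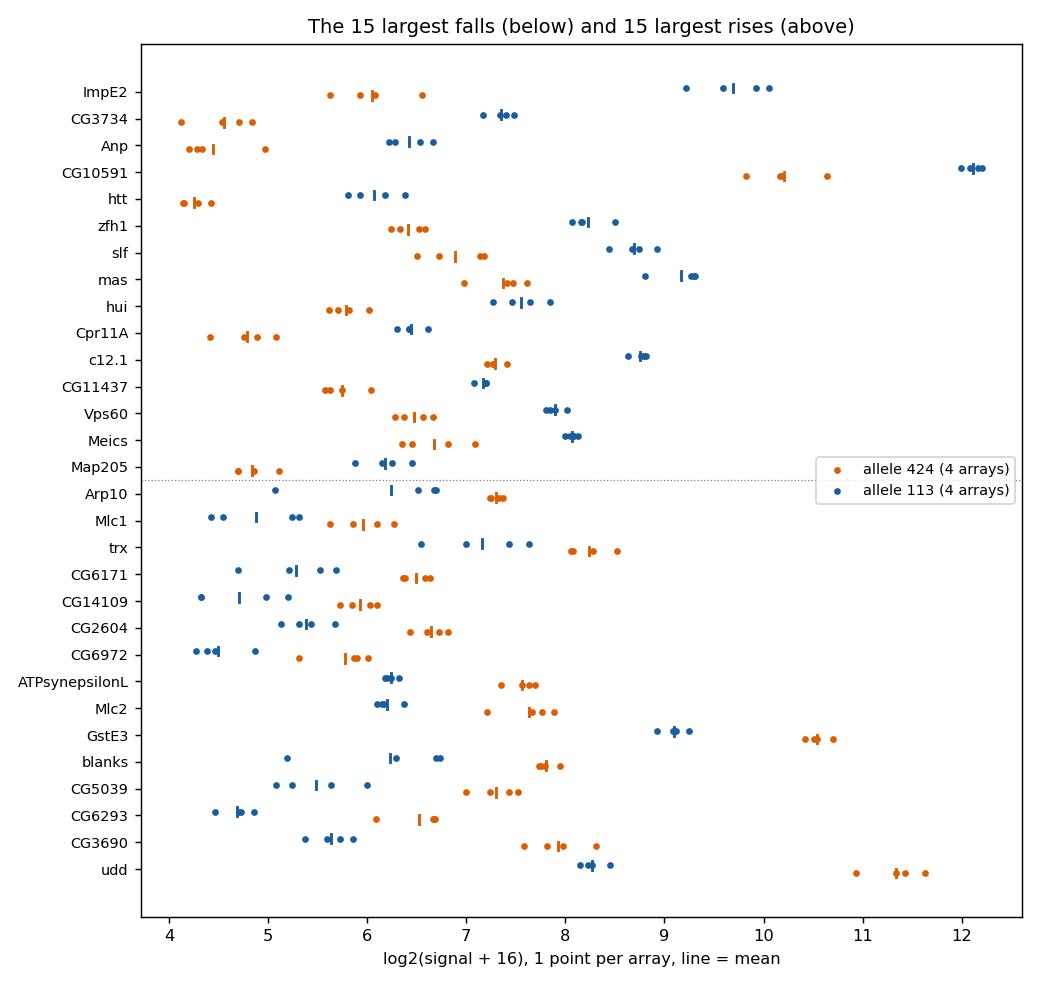
Values of log2(signal + 16) on each array of 424 (orange) and 113 (blue) for the 15 largest falls and 15 largest rises among called genes whose arrays do not overlap. Short lines mark the mean of 4 arrays. ImpE2 at the top rose by 3.65 and udd at the bottom fell by 3.06.

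The place of each allele among the 5 genotypes was counted next, with no test. Among the 342 genes higher in 113, the mean of 424 lay below those of the control, 65 and the null in 268 (78.4%), beside 23.3% of all tested genes. The mean of 113 lay above all 3 in 187 (54.7%), beside 21.98%. Both held in 137 genes, 424 alone was outside in 121 and 113 alone in 47. Among the 264 genes lower in 113, 424 lay above all 3 in 164 (62.1%, beside 24.4%) and 113 below all 3 in 132 (50%, beside 21.3%). The calling of the step itself favours genes in which 424 or 113 is extreme, so these shares describe the members and are not compared with chance. Means in the order of control above 65 above 424 above 113 were found in 20 of the 264 (7.58%), beside 4.34% of all tested genes.

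On single arrays, with no overlap between sets, 80 of the 342 genes had all 4 arrays of 424 below the other 16, beside 87 of all 8357 tested genes (1.04%), and 36 of the 264 had them above, beside 53 of all (0.634%). All arrays of 113 stood above the other 16 in 17 called genes and below them in 14, beside 21 of all tested genes (0.251%) in each direction. A division of 424, 65 and the control from 113 and the null was found in 9 genes higher in 113, beside 10 of all tested (0.12%), and in 25 lower, beside 32 of all (0.383%). The 25 included Mlc2, Mlc1, TpnC73F, Msp300, Tm2, sls, sing, HLH54F, CG6972, CG14109 and mdy, and the 9 included Vrp1, verm and Hsc70-4. A division of 424 and the control from the other 3 genotypes was found in 16 genes higher in 113, beside 16 of all tested (0.191%), and in 10 lower, beside 11 of all (0.132%). These divisions use the arrays that made the calls. A gene can stand in more than 1 of these divisions.

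The log2 change of the null from the control uses other arrays and none of the 8 of the step. Its calls come from the same limma fit of all 20 arrays and share its variance estimates with the step. A gene with little spread is therefore favoured in both sets of calls. The comparison of the null with the control called 1656 of 8357 genes (19.8%), 741 higher (8.87%) and 915 lower (10.9%). Of the 264 genes lower in 113 than in 424, 70 were also lower in the null than in the control (26.5%) and 44 were higher (16.7%). Of the 342 genes higher in 113, 50 were higher in the null (14.6%) and 65 lower (19.0%). Read the other way, the step called 70 of the 915 genes lower in the null as lower (7.65%, beside 3.16% of all genes) and 65 as higher (7.10%, beside 4.09%). Of the 741 genes higher in the null it called 50 as higher (6.75%) and 44 as lower (5.94%). Of the 145 genes at least 2-fold lower in the null, the step called 36 as lower (24.8%) and 13 as higher (8.97%), with a median change of -0.18. Of the 62 genes at least 2-fold higher in the null, it called 8 as higher (12.9%) and 5 as lower (8.06%), with a median of 0.01. Over all genes 4.09% were called higher and 3.16% lower.

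The 7 sarcomere members lower in the step were among those lower in both. Mlc2 changed by -1.43 in the step and -3.09 in the null, Mlc1 by -1.08 and -3.09, TpnC73F by -0.94 and -2.94, and sls by -0.63 and -1.78. Genes opposed in sign included zfh1, at 1.81 and -1.19, and GstE3, at -1.45 and 0.66. ImpE2 and CG3734, both higher in 113 than in 424, were at -0.24 and -0.05 in the null and were not called there (limma adjusted p = 0.345 and 0.900).

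**Figure D5:**
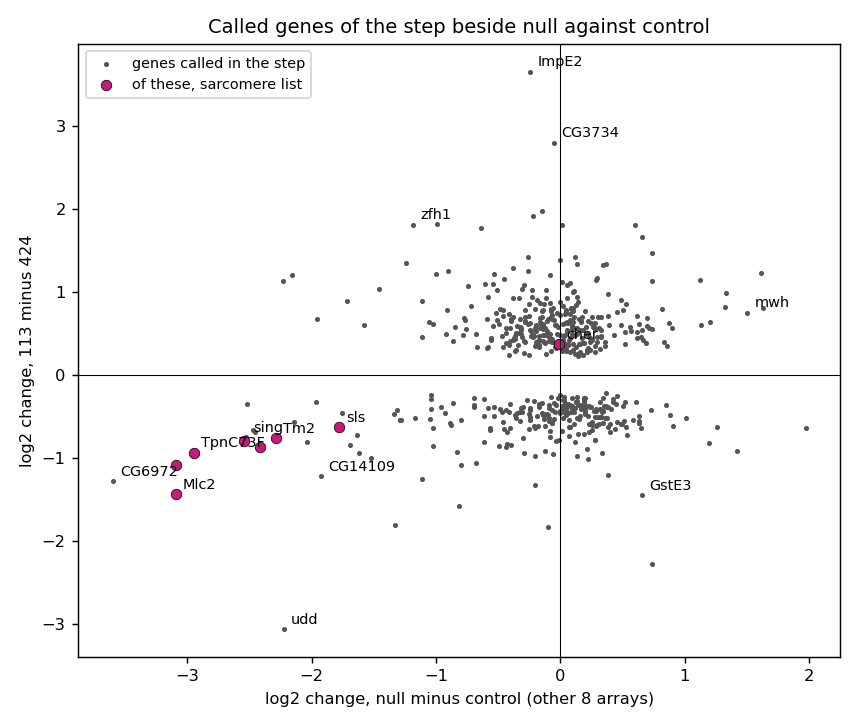
Log2 change from 424 to 113 against the log2 change of the null from the control, on 8 other arrays, for the 606 genes called in the step. The 7 sarcomere members lower in the step lie in the lower left corner, where 70 genes were called lower in both.

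The neighbouring steps called 385 genes between 65 and 424 (4.61%) and 1267 between 113 and the null (15.2%). limma's test of the difference between the step from 424 to 113 and that from 65 to 424 called 529 genes (6.33%), 3.78% with a higher and 2.55% with a lower value in the step described here. Among them were 258 of the 342 genes higher in 113 and 153 of the 264 lower. The difference from the step between 113 and the null called 791 genes (9.47%), 5.34% higher and 4.13% lower, among them 219 of the 342 higher genes. Of the 264 lower genes, 146 differed with a lower value in the step from 424 to 113 and 7 with a higher value. sing was among the latter, at -0.75 from 424 to 113 and -1.76 from 113 to the null (adjusted p of the difference = 0.0104).

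The share of genes called was counted by chromosome. On the third chromosome 325 of 3704 tested genes were called (8.77%), with 9.70% on 3L and 8.05% on 3R. On the second, which carries mef2, 190 of 3158 were called (6.02%), on the X 88 of 1415 (6.22%) and on the fourth 2 of 47 (4.26%). The third chromosome held 44.3% of tested genes, 53.6% of called genes and 45 of the 61 genes that changed at least 2-fold (73.8%). Among the genes with large changes named above, ImpE2, CG3734, zfh1, mas, Anp, CG6293 and CG5039 lie there. These counts are a description, with no test.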

How the data were processed

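Messenger RNA of whole embryos was measured on 20 1-colour Affymetrix arrays, 4 per genotype. The values are linear intensities per probe set, deposited by the authors and computed with MAS5 per the submitters' processing notes, while MAS5 version and genome build were not given in the sources used here. Detection calls were not used. Of 14010 probe sets, 44 were controls, 12443 had 1 gene symbol, 327 several and 1196 none in the platform annotation, and 12394 matched the RefSeq Release 6 gene table used for names and chromosomes. They stood for 10844 genes, 1209 with several probe sets, of which the one with the highest mean over 20 arrays was kept. The lowest 25% of probe sets by mean log2 value (signal 9.29) were left out, which left 8357 genes.

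limma 3.58.1 (R 4.3.3) fitted 5 genotype means to log2(signal + 16) of all 20 arrays, with eBayes and a mean-variance trend (15 residual and 8.55 prior degrees of freedom), and Benjamini-Hochberg adjustment at 0.05. Differences between steps were contrasts of the same fit. The procedure was tested on data simulated with normal noise independent between genes. It recovered 37 of 100 changes of 0.5 on the log2 scale and 88 of 100 of size 1, with 6 false calls. Changes of 0.5 or less can therefore go uncalled. Python 3.11.15, numpy 2.4.6, pandas 2.3.3 and matplotlib 3.10.9 served for tables and plots. Named genes were the 15 largest falls and 15 largest rises among called genes whose arrays did not overlap, every called list member, every measured sarcomere member and, for lists with no call, the member with the smallest p, 94 in all. Other names in the sets of arrays without overlap were chosen after their values were seen. The members and the 28 gene lists were chosen with earlier results of these data known.

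Same-numbered arrays of 424 and 113 shared a hybridisation day per the run records. Their deviations from the group means correlated at 0.02, 0.05, 0.00 and 0.12, and the number was not taken as a pairing of embryos. The main fit had no term for the number or the day, which were blocks in the alternatives only. Alternatives were other pseudocounts, filters, scalings, probe set rules, variance models, samples in the fit, blocks and leaving out each array. Another, added after the run records were seen, leaves out the array of allele 65 with an aborted fluidics record.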

Additional observations from a re-analysis of the deposited data

Results flagged for a closer look

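For 94 named genes the lowest and the highest of 4 arrays were compared with the others in each allele, which made 188 groups. In 12 the gap to the nearest array, as a share of the whole range, exceeded Dixon's 95% critical value, and chance gives about 1 in 20 groups. In 113, replicate 1 stood apart for 4 genes: it was the lowest for Arp10 (gap 0.886 of the range, signal 17.7) and pnr (0.899, 77.0) and the highest for Ccp84Ag (0.914, 97.7) and mdy (0.983, 405). Replicate 2 of 113 was the lowest for CG11437 (0.957), at 119.6, and replicate 4 for mas (0.924), at 432. In 424, replicate 4 was the lowest for CG6293 (0.955, signal 52.0) and Ccp84Ag (0.881, 116) and the highest for aub (0.838, 125). Replicate 1 of 424 was the lowest for RpL3 (0.854, 7151), replicate 2 for stv (0.84, 31.5) and replicate 3 for Fbp1 (0.872, 10.4). The alleles did not overlap in these genes apart from Fbp1. Fbp1, RpL3 and pnr were not called.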

How the results depend on the processing

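The count of 606 called genes was 434 to 526 when 1 array of 424 or 113 was left out, with 249 to 299 higher and 176 to 236 lower. With the 8 arrays of the step alone in the fit, 497 genes were called, 290 higher and 207 lower. Among these were 461 of the 606, without the named genes PCNA, Gapdh1, gcm2, ImpL1, Tig and Prosalpha5. All 606 kept their sign under every alternative in which they were tested, except 3 with the mean of a gene's probe sets. Among the 606, that alternative could alter the log2 change only of the 72 genes that had several probe sets. Calls of the others can still shift, since the variances and the adjustment are refitted over all genes. In 46 of these 72 all other probe sets had the sign of the one used. With the fluidics module as a block, which raised the median standard error 1.15-fold, 311 genes were called, 197 higher and 114 lower, and 289 of the 606 were among them. The counts for the difference from the 65 to 424 step and from the 113 to null step were then 331 and 490, in place of 529 and 791. The module block ended the calls of the named genes CycE, Mcm2, fzr, PCNA, sls, cher, serp, obst-A, Vrp1, Tig, kon, mirr, ImpL1, gcm2, ase, insc, Dcp-1, Gapdh1 and Prosalpha5, with the sign kept. Modules and alleles overlap in module 2 alone, and the cause was not tested. With the replicate number as a block 750 genes were called, 605 of the 606 among them, and 726 with the day. The replicate block was run for the step in all and by direction, both differences between steps, sarcomere members lower and epidermal members higher, and moved none of these by over 1.5 times, while the other counts in the text were not rerun. Of the named genes it added calls of tmod, Actn, Ald1 and blw and ended none. With a pseudocount of 1, 4 sarcomere members were lower in place of 7, without Msp300, up and sls. Leaving out 1 array gave 5 to 7 of them, and 10 to 11 epidermal members higher. The difference from the 65 to 424 step gave 388 to 530 genes and that from the 113 to null step 541 to 788 with 1 array left out. Signals near the filter level of 9.29 limit the sizes given for Mlc1, TpnC73F, htt, Anp, CG3734 and CG6972.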
